A study of Mus musculus with 2 samples.

Results

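Hyaluronan is a long unbranched sugar polymer of the extracellular matrix, and the 10 genes described here make it, cut it, crosslink it or bind it. They were chosen by symbol (Has1, Has2, Has3, Hyal1, Hyal2, Cemip, Cemip2, Cd44, Tnfaip6 and Ugdh), with earlier results of these libraries known, and all 10 are among the 12707 genes of the deposited table. RNA was sequenced from live CD45-negative cells sorted from Py8119 tumours, a mouse mammary tumour line of mesenchymal character, in 1 library from mice with wild-type Mtdh and 1 library from Mtdh knockout mice. The injected tumour cells carried wild-type Mtdh in both, so the libraries are named for the host. The labels give no age, sex or strain of the mice, do not say how the knockout was made or in which cells, and do not say how many tumours or mice were pooled in a library. Py8119 is a single line, and the sort leaves tumour cells together with any host cells that lack CD45. With 1 library a group nothing could be checked against replicates, so every difference is one between these libraries and not between the genotypes.

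Hyaluronan is made at the plasma membrane by the HAS enzymes, which join UDP-glucuronate and UDP-N-acetylglucosamine and push the growing chain out of the cell. Long chains are crosslinked and anchored by binding proteins and are sensed by surface receptors, of which CD44 is the best known. Chains are cut by hyaluronidases and by the CEMIP proteins. In mammary tumours, a hyaluronan-rich matrix and CD44 are known for their links to invasion and to mesenchymal tumour cells.

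Has2 and Cemip were the genes of this group with a more than 2-fold higher level in the knockout-host library. Has2 was 3.10-fold higher and Cemip 3.39-fold higher, Tnfaip6 was 1.87-fold higher, and Cd44, Ugdh, Cemip2, Has1 and Hyal2 were between 1.37-fold and 1.48-fold higher. Hyal1 and Has3 were on the other side, at 0.639 and 0.867 times the level of the other library. Levels are reads per 1000000 (RPM), computed from the deposited values, and reads are those recovered from the same values, 26069350 in the wild-type-host library and 23381816 in the other. Intervals are 95% exact binomial (Clopper-Pearson) intervals of the ratio and cover counting error only, without any spread between tumours or mice. They treat each read as an independent count. Amplified reads that carry no molecular identifier do not each stand for a molecule, so the intervals can be too narrow even for counting error.

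Of the 10 genes, 9 had 100 or more reads over both libraries, the minimum used for counting, and Has3 did not. By a 2-fold size rule, 2 of these 9 were higher in the knockout-host library, 7 stayed within 2-fold and 0 were lower. Over all 10670 genes counted the same way, 8.47% were 2-fold higher and 11.4% were 2-fold lower. On the deposited log2(FPKM + 1) scale, with a difference of 1 or more and a mean of 1 or more, 1 of 8 genes (Has2) was higher and 0 were lower, beside 2.31% and 2.64% of 6057 genes. The median log2 RPM ratio of the 9 genes was 0.57, with 8 above 0, beside a median of -0.06 over all counted genes, of which 45.6% were above 0. The group was chosen with these values known, so its count and median are a description and support nothing by themselves. The share past the rule differed with depth: 26.1% of genes with 100 to 300 reads were 2-fold higher, 12.9% with 300 to 1000 reads, 3.59% with 1000 to 5000 reads, 1.24% with 5000 to 20000 reads and 2.73% with 20000 or more reads, the group that holds Cd44. A given ratio of Has2, a gene with many reads, was therefore rarer in these libraries than the same ratio of Cemip, a gene with few.

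**Figure D1:**
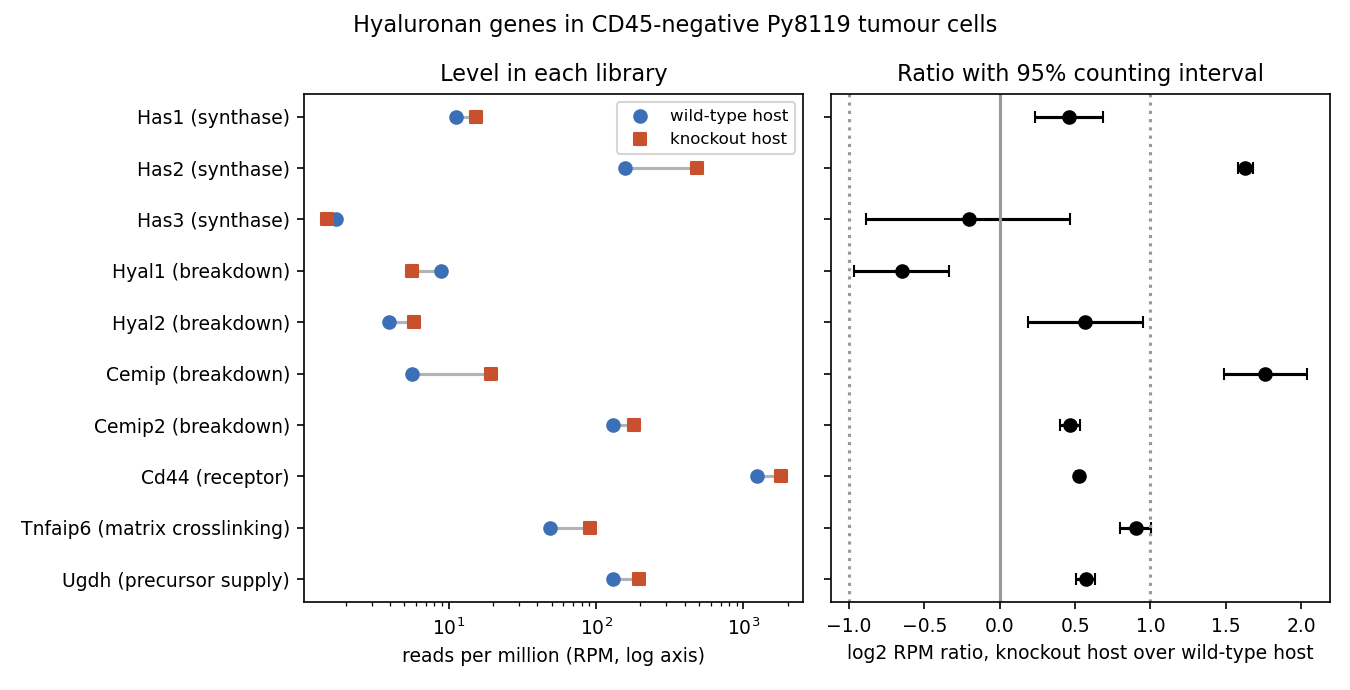
Left, the level of each hyaluronan gene in RPM (log axis) in the wild-type-host library (circles) and the knockout-host library (squares); right, the log2 RPM ratio of knockout over wild-type host with its 95% counting interval, with dotted lines at 2-fold. Has2 (3.10-fold) and Cemip (3.39-fold) lie past the upper dotted line, and Hyal1 and Has3 lie below 0.

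The stretches of DNA just before the start sites of Cemip, Tnfaip6 and Cd44 are shown because these are the genes with the highest ratios or the highest level that have an entry in the RefSeq promoter table. That table (build GRCm38.p6, while the expression values use mm39) matched 7 of the 10 genes; Has2, Has3 and Cemip2 are named only. Each sequence is the 250 bases before the annotated start, written 5′ to 3′ on the strand of the gene, at chr7:84086506-84086755 (minus strand) for Cemip, chr2:52037863-52038112 (plus strand) for Tnfaip6 and chr2:102901666-102901915 (minus strand) for Cd44. Capitals mark matches on either strand to the TATA box (TATAAA), the AP-1 motif (TGANTCA), the STAT motif (TTCNNNGAA), the cAMP response element (TGACGTCA) or the NF-kB consensus.
Cemip: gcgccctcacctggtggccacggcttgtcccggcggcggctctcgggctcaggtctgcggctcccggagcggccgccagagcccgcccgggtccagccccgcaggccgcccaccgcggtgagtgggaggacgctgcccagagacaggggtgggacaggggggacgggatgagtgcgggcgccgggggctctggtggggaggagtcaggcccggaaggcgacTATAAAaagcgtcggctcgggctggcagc
Tnfaip6: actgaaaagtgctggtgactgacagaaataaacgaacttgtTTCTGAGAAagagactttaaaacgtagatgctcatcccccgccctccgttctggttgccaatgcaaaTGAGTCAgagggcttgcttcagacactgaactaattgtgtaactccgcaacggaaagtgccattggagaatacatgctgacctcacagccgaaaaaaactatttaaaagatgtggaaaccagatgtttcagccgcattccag
Cd44: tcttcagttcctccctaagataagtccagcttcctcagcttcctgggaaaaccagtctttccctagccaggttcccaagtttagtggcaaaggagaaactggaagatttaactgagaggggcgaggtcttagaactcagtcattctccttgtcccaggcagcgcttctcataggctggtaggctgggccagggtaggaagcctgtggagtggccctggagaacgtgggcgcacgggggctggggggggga

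The Cemip sequence held a TATA box from 29 to 24 bases before the start, a motif found in 12.4% of all 32851 promoters of the table over the same 250 bases. The Tnfaip6 sequence held an AP-1 motif from 142 to 136 bases and a STAT motif from 209 to 201 bases before the start, each on the strand of the gene, which 6.75% and 7.02% of all promoters hold. The Cd44 sequence held no match to these motifs. Among the other matched genes, Has1 had a cAMP response element from 83 to 76 bases before the start (1.55% of all promoters) and Hyal2 the NF-kB consensus from 238 to 229 bases (3.90%). The GC box (GGGCGG, either strand) was in 5 of the 7, against 32.7% of all promoters, and the E-box CACGTG was in 0, against 6.02%. Matches of letters are a description, and none of them was measured as a bound site here. In base composition the 3 printed stretches differed widely, with 75.2% G and C for Cemip, 56.4% for Cd44 and 44.4% for Tnfaip6, beside a median of 52.4% over all promoters.

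The synthases come first. Has2, the main hyaluronan synthase of mesenchymal cells (chromosome 15, listed from 56529023 to 56557936 on the minus strand of mm39), had 4068 reads in the wild-type-host library and 11296 in the knockout-host library. That is 156.0 and 483.1 RPM, a ratio of 3.10 (95% counting interval 2.99 to 3.21) and a log2 ratio of 1.63. Among the 1938 genes with 5000 to 20000 reads, 5 had a ratio as high, Has2 included. Has1, a synthase usually found at low levels (chromosome 17, 18063585 to 18075468), had 292 and 360 reads, or 11.2 and 15.4 RPM. Its ratio was 1.37 (1.17 to 1.61), and 26.7% of genes with 300 to 1000 reads had a ratio as high. Has3, which makes shorter chains in many cell systems (chromosome 8, 107596874 to 107611199), had 45 and 35 reads. Its interval (0.541 to 1.38) includes 1, so a difference was not detectable at this depth. The listed span of Has3 shares 704 bases with Chtf8 and 677 with Derpc, both on the other strand. Derpc had 2216.7 and 1497.1 reads and Chtf8 204.3 and 138.0, far more than Has3, and the labels do not say whether strand was used in counting.

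Has2 gave most of the synthase reads in both libraries. Its share of the reads of the 3 synthases was 92.3% (95% Clopper-Pearson interval 91.5 to 93.1) in the wild-type-host library and 96.6% (96.3 to 96.9) in the knockout-host library. The share of Has1 was 6.63% (5.91 to 7.40) and 3.08% (2.77 to 3.41), and that of Has3 was 1.02% (0.746 to 1.36) and 0.299% (0.209 to 0.416). Summed over the family, synthase reads were 4405 and 11691, a 2.96-fold difference (2.86 to 3.06), and without Has2 the other two summed to 337 and 395 reads, a ratio of 1.31 (1.13 to 1.52). Divided by exon length, where the genes can be compared with each other, Has2 held 86.8% and 93.8% of the synthase level.

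Ugdh supplies the chain with one of its building blocks: it oxidises UDP-glucose to UDP-glucuronate, which all 3 synthases use. The gene (chromosome 5, 65570564 to 65593293) had 3408 and 4536 reads, or 130.7 and 194.0 RPM. The ratio was 1.48 (1.42 to 1.55), and 4.85% of genes with 5000 to 20000 reads had one as high. Ugdh was thus higher in the same library as Has2, by a smaller ratio whose interval does not reach that of Has2.

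Of the genes of hyaluronan breakdown, Cemip, Cemip2 and Hyal2 had ratios above 1, and Hyal1, whose listed span overlaps other genes, had a ratio below 1. Cemip, a secreted protein needed for hyaluronan breakdown by fibroblasts (chromosome 7, 83582065 to 83735711), had 148 and 450 reads, or 5.68 and 19.2 RPM. Its ratio of 3.39 (2.81 to 4.11) was the highest of the 10 genes, on few reads: 3.51% of the genes with 300 to 1000 reads had a ratio as high. In the deposited log2(FPKM + 1) values this difference is only 0.12, from 0.05 to 0.17, because the authors' FPKM divides by the genomic span of the gene, 153646 bases for Cemip, and the added 1 then hides most of it. Cemip2, a membrane protein related to Cemip (chromosome 19, 21755706 to 21835725), had 3417 and 4231 reads, a ratio of 1.38 (1.32 to 1.44). It gave far more reads than Cemip in both libraries.

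Hyal2, a hyaluronidase anchored at the cell surface, and Hyal1, its lysosomal relative, lie next to each other on chromosome 9 (107445144 to 107449979 and 107454126 to 107458910, both on the plus strand). Hyal2 had 103 and 137 reads, a ratio of 1.48 (1.14 to 1.93), and 34.0% of genes with 100 to 300 reads had one as high. Hyal1 had 231 and 132.3 reads, a ratio of 0.639 (0.510 to 0.792), and 30.2% of genes with 300 to 1000 reads had one as low. The listed span of Hyal1 overlaps that of Naa80, an acetyltransferase gene on the same strand, by 2824 bases, and that of Hyal3 by 893. Naa80 had 13 and 269.9 reads and Hyal3 77 and 65.8, so the split of reads between these genes is uncertain. The 3 overlapping genes together had 321 and 468 reads, a ratio of 1.63 (1.41 to 1.88), on the other side of 1 from Hyal1 alone. Hyal1 and Hyal2 summed to 334 and 269.3 reads, a ratio of 0.899 whose interval (0.762 to 1.06) includes 1. All 4 breakdown genes summed to 149.6 and 211.7 RPM, a ratio of 1.42 (1.36 to 1.48), most of it from Cemip2.

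Cd44, the main cell-surface receptor for hyaluronan and a marker of mesenchymal mammary tumour cells, had the most reads of the group. The gene (chromosome 2, 102641486 to 102732011) had 32349.7 and 41794.5 reads, or 1241 and 1787 RPM. Its ratio was 1.44 (1.42 to 1.46), and 8.43% of the 439 genes with 20000 or more reads had one as high. The values are totals per gene and do not separate the standard form of CD44 from its splice variants. Tnfaip6, which encodes TSG-6, a secreted protein that transfers the heavy chains of inter-alpha-inhibitor onto hyaluronan, was just under the 2-fold rule. It lies on chromosome 2 (51928021 to 51946699) and had 1266 and 2121 reads, or 48.6 and 90.7 RPM, a ratio of 1.87 (1.74 to 2.004). Among genes with 1000 to 5000 reads, 4.70% had a ratio as high.

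**Figure D2:**
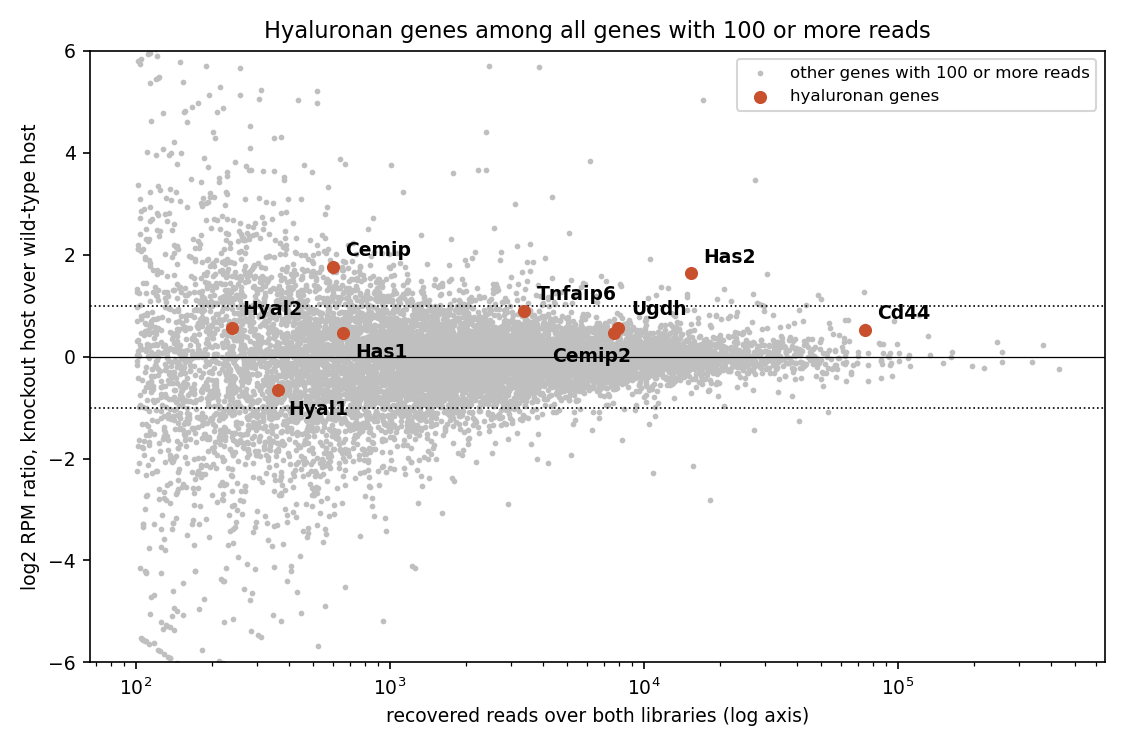
The log2 RPM ratio of knockout over wild-type host for each gene with 100 or more reads, against its reads over both libraries (log axis), with the hyaluronan genes named and dotted lines at 2-fold; 124 genes lie outside the vertical axis. The spread narrows as reads increase, and Has2 sits near the upper edge of genes of its depth while Hyal1, Hyal2 and Has1 sit within the spread.

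For levels that can be set side by side between genes, RPM was divided by the exon length of each gene in kilobases. In the wild-type-host library the order was Cd44 (219.5 RPM per kilobase of exon), Ugdh (51.3), Has2 (36.8), Tnfaip6 (28.4), Cemip2 (19.6), Has1 (5.35), Hyal1 (2.35), Hyal2 (1.21), Cemip (0.798) and Has3 (0.271). In the knockout-host library Has2 was second, at 114.0, above Ugdh at 76.1, and Cemip was seventh, at 2.71, above Hyal2 at 1.80 and Hyal1 at 1.499. Cd44 stayed first at 316.1 and Has3 last at 0.235. Tnfaip6 was at 53.0, Cemip2 at 27.0 and Has1 at 7.35 on this scale. With 1 library a group there is no spread over samples against which neighbours in this order could be compared.

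The other genes of the pathway were taken from 7 lists of 105 entries, of which 83 were in the table and 77 had 100 or more reads and a value above 0 in both libraries. Of these 77, 1 was 2-fold higher in the knockout-host library (1.30%) and 5 were 2-fold lower (6.49%), beside 8.47% and 11.4% over all genes. Many of the listed genes had more than 1000 reads, where these shares are smaller. They were 3.59% higher and 5.64% lower with 1000 to 5000 reads, and 1.24% and 0.877% with 5000 to 20000. The 2 comparisons are therefore not at like depth. The other 71 listed genes, which include genes of sulfated chains, were within 2-fold.

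The list of UDP-sugar and hexosamine enzymes, without Ugdh, had a median log2 ratio of 0.09 over 19 genes, with 12 above 0. This list is not limited to enzymes that make the precursors, so its median does not measure their supply. By the 2-fold rule 0 of the genes were higher and 2 lower. On the higher side, Gnpda1 was just under the rule, with 1070 and 1909 reads (1.99 times, 1.84 to 2.15). Gnpnat1, which acetylates glucosamine phosphate on the way to UDP-N-acetylglucosamine, was lower, with 960.3 and 248.1 reads (0.288 times, 0.249 to 0.332). Uap1l1, a relative of the enzyme that makes this UDP-sugar, had 292 and 120 reads (0.458 times, 0.367 to 0.569). The genes with the most reads here, Ogt and Oga, which add and remove N-acetylglucosamine on proteins, were at -0.27 and -0.07 on the log2 scale. The lysosomal enzymes that degrade glycosaminoglycans had a median of -0.15 over 8 genes. Among them Idua, an iduronidase that acts on sulfated chains and not on hyaluronan, was 2-fold higher with 111 and 206 reads, while Ids and Arsb, which also act on sulfated chains, were at -0.26 and -0.49. Among other hyaluronidases only Hyal3 was in the table, at -0.07.

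Other hyaluronan receptors had a median of 0.27 over 5 genes, with 0 higher and 2 lower. Hmmr, an intracellular and surface hyaluronan-binding protein that also works at the mitotic spindle, had 1803 and 708 reads, 0.438 times the level (0.401 to 0.478). Layn (layilin) had 123 and 3 reads, a ratio of 0.0272 (0.00553 to 0.0814). It is among the genes with 100 to 300 reads, 18.3% of which were at 5 reads or under in one of the libraries. Tlr2 and Tlr4, innate receptors reported to sense hyaluronan fragments, were at 0.27 and 0.43. Hmmr and Cd44 thus lay on opposite sides of 0.

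Hyaluronan-binding and matrix-stabilising proteins had a median of -0.22 over 6 genes, with 0 higher and 1 lower. Acan (aggrecan), a large proteoglycan that binds hyaluronan, had 436 and 12 reads, 0.0307 times the level (0.0157 to 0.0542). Vcan (versican), its relative in soft tissue, had 13684.1 and 15311.8 reads (1.25 times, 1.22 to 1.28), and Fn1 (fibronectin) had 123660.2 and 95174.2 (0.858 times). Of the inter-alpha-inhibitor heavy chains onto which TSG-6 acts, Itih3 was listed at 148 and 0 reads, Itih2 at 0 and 63, and Itih5 at 1 and 28. The table also lists Timm13, a mitochondrial import gene that every cell uses, at 0 in the knockout-host library, so these are given as listed, without a ratio. All 3 heavy-chain genes thus had few reads, while Tnfaip6 had more than 1000 in each library.

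Partners of CD44 and the enzymes that make the backbones of sulfated chains had 0 genes past the rule in either direction. The CD44 list (ezrin-type linkers, sheddases, splicing factors and ligands) had a median of -0.01 over 19 genes. Its genes with the most reads were Srsf1, a splicing factor, at -0.14, and Iqgap1, a scaffold that links CD44 to actin, at 0.16. The list for sulfated chains had a median of 0.09 over 19 genes, with Ndst1, a heparan sulfate enzyme, at 0.21 and Chsy1, a chondroitin synthase, at 0.19.

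**Figure D3:**
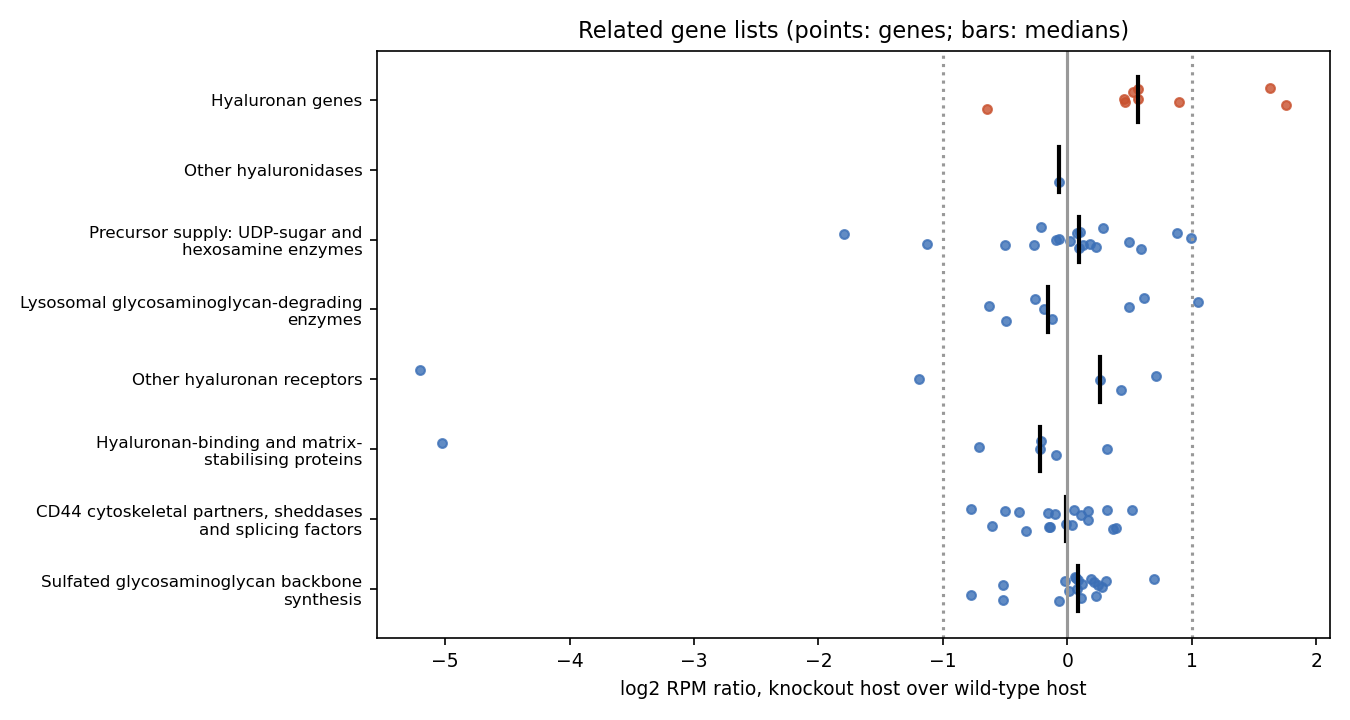
Log2 RPM ratio of knockout over wild-type host for the hyaluronan genes with 100 or more reads and for the genes of 7 related lists; each point is a gene, the black bar is the median of the list and dotted lines mark 2-fold. The hyaluronan genes have a median of 0.57, and the medians of the lists lie between -0.22 and 0.27.

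Genes listed as markers of cell types differed between the libraries, and their values are given beside those above. Over all counted genes, 8.47% were 2-fold higher and 11.4% were 2-fold lower. With 100 to 300 reads these shares were 26.1% and 30.2%, and with 300 to 1000 reads 12.9% and 19.9%. Several of the markers past 2-fold had so few reads. The sort keeps tumour cells and host cells together, so whether tumour or host cells gave the marker reads cannot be told apart. Each sum covers only the markers in the deposited table. These were 9 of 10 for fibroblasts and 6 of 10 for pericytes and smooth muscle, where Rgs5, Des, Kcnj8 and Myh11 were absent. Mtdh itself was at 1088 and 989.3 RPM, a ratio of 0.909 (0.893 to 0.925), and since the injected cells carry the gene this says little about the host label. The fibroblast markers summed to 1514 RPM in the wild-type-host library and 770.0 in the other, with 0 of 6 counted genes above 0 and 3 of them 2-fold lower: Dpt (322 and 44 reads), Dcn (784 and 158) and Col3a1, which had the most reads of the list (29626.6 and 11075.8) and the smallest drop of the 3. Pdgfra, on the same list, had 5834.1 and 5056 reads, Col1a2 1526 and 893, Thy1 45 and 3, Pi16 37.8 and 1, and Fbln1 6 and 5. The pericyte and smooth muscle markers summed to 425.3 and 94.2 RPM, with all 3 counted genes 2-fold lower, among them Pdgfrb (9205.7 and 1691 reads), Notch3 (950 and 188) and Acta2 (697 and 249), while Cspg4 was listed at 190 and 0 and Abcc9 at 1 and 56 reads. Most of the fibroblast sum came from Col3a1 (1136 and 473.7 RPM) and most of the pericyte sum from Pdgfrb (353.1 and 72.3 RPM). Has2, Cemip, Tnfaip6 and Cd44 were higher in the library where these sums were lower. Which cells gave the reads of Has2, Cemip, Tnfaip6 and Cd44 was not tested. In bulk cells, fewer cells of a type and less RNA per cell cannot be told apart.

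Epithelial markers were higher in the same library as most hyaluronan genes. Their sum was 209.8 and 336.2 RPM, with 6 of 6 counted genes above 0 and 3 of them 2-fold higher. Of all counted genes 8.47% were 2-fold higher, and 26.1% of those with 100 to 300 reads. Krt8 had 3172 and 4050 reads, Krt18 1659 and 2339, and Cldn4 251 and 783. Elf3 was listed at 0 and 66 and Trp63 at 99 and 0. Of the 11 epithelial markers 8 were in the deposited table, and Krt5, Krt14 and Krt17 were absent. Lymphatic endothelial markers summed to 0.192 and 18.01 RPM, from Pdpn (5 and 296 reads), which other cells express too, and Prox1 (listed at 0 and 125). Only these 2 of the 7 lymphatic markers were in the table, and Lyve1 and Flt4 were among those absent. Vascular endothelial markers summed to 18.3 and 14.2 RPM, with Plvap at 348 and 58 reads, Pecam1 at 129 and 128, and Cdh5 at 1 and 146. Only these 3 of the 10 vascular markers were in the table, and Kdr, Tek and Cldn5 were among those absent. Macrophage markers summed to 178.8 and 218.6 RPM, with 5 of 8 counted genes above 0 and 2 of them 2-fold higher. Lyz2 had 3504 and 3470.8 reads, Mpeg1 378 and 952, Csf1r 198 and 195.2 and C1qa 8 and 18. The counted genes below 0 were Mrc1 (146 and 67 reads), Cd163 (97 and 55) and Ms4a7 (94 and 69). Pan-leukocyte markers summed to 14.5 and 17.1 RPM, with 1 of 5 counted genes 2-fold higher; Cd53 had 90 and 85 reads, Itgb2 79 and 56, Coro1a 9 and 8, and Ptprc, which encodes the CD45 used in the sort, 46 and 64. Mesothelial and adipocyte markers summed to 71.9 and 75.8 RPM, nearly all from Msln (1872.3 and 1758.6 reads), with Plin1 at 3.1 and 13. Only these 2 of the 8 listed were in the table. The part of these cell types in the hyaluronan values was not tested.

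**Figure D4:**
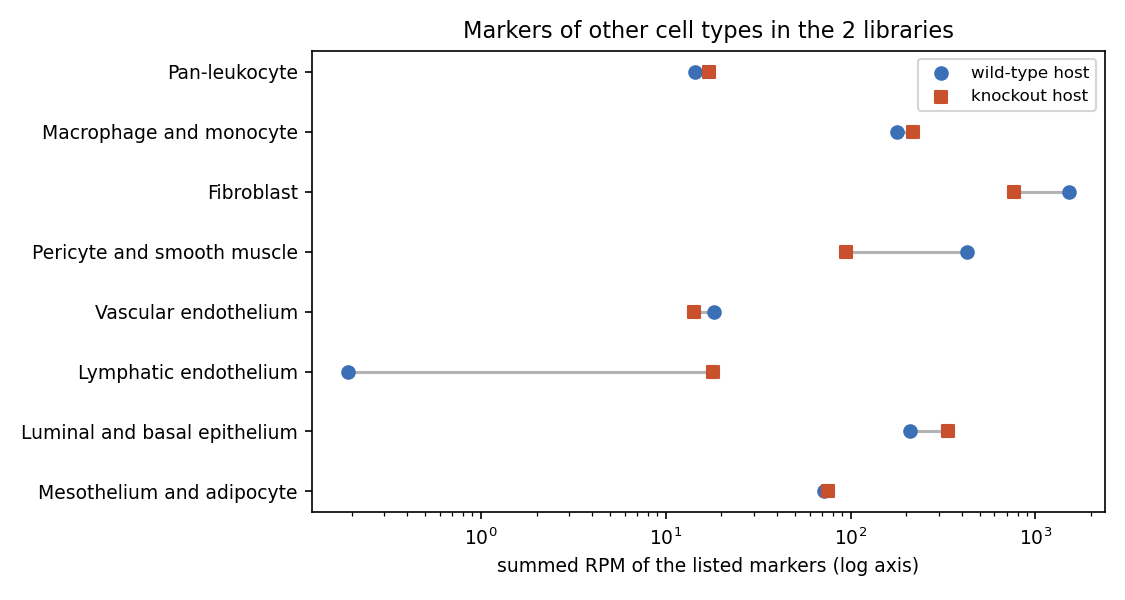
Summed RPM (log axis) of the marker genes of 8 lists that were in the deposited table, in the wild-type-host library (circles) and the knockout-host library (squares). Fibroblast and pericyte sums are lower in the knockout-host library (770.0 against 1514 RPM and 94.2 against 425.3), and the lymphatic sum is higher from a very low level.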

How the data were processed

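RNA of CD45-negative live cells was sequenced in 1 library per host genotype. Reads were aligned with STAR 2.7.8a to mm39, with Partek also listed, per the submitters' processing notes; the annotation release and the handling of strand and of multiple hits are not stated in the labels. The authors deposited log2 values of FPKM + 1, per the file headers and name. FPKM multiplied by the listed length summed to 1000000 in each library, and that length equals stop minus start in 100% of rows, so it is the genomic span. RPM was computed by that multiplication. Reads were recovered from the step between low values: 84.9% and 83.4% of values under 1000 reads were whole within 0.1 read, and the other values were fractions, among them those of Cd44 and Hyal1. A total of 511 and 413 genes were listed at 0; 143 with 100 or more reads have no ratio and are not counted. Exon lengths are unions over protein-coding transcripts of GENCODE M21 (GRCm38), matched by gene ID for all 10 genes; the labels do not say whether intron reads were counted.

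No test or p-value was computed. Named genes are all 10 members, Mtdh, in each related list the genes past 2-fold and the 2 with most reads, and in each marker list the 3 with most reads and any marker under 10 reads in a library. Naa80, Chtf8, Derpc, Dpt, Dcn, Itih2, Itih3, Itih5, Timm13, Gnpda1, Mrc1, Cd163 and Ms4a7 were chosen after their values were seen. Members and lists were chosen with earlier results of these data known. Read recovery and ratios were tested on simulated data that held whole counts only, so that test does not cover the values that were fractions. Python 3.11.15, numpy 2.4.6, pandas 2.3.3, scipy 1.17.1 and matplotlib 3.10.9 were used.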

Additional observations from a re-analysis of the deposited data

How the results depend on the processing

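The count of 2 hyaluronan genes past 2-fold (Has2 and Cemip) was also 2 with 0.1 or 1 RPM added, under both other scalings and without the read filter. It was 2 as well with 500 or more reads, with whole reads only and by a 3-fold rule. A 1.5-fold rule gave 3 higher and 1 lower (Hyal1), beside 15.8% and 20.8% of all 10670 genes. By the 3-fold rule 3.93% of all genes were higher and 5.60% lower, and with 500 or more reads 4.44% and 6.62%. Under the other of these settings 7.66% to 11.4% of all genes were higher and 10.5% to 13.4% lower. On the deposited log2(FPKM + 1) scale the count of higher hyaluronan genes was 1, Has2 at 1.47, and Cemip was under the minimum mean of 1. There 2.31% of all genes were higher and 2.64% lower. No member value changed sign over 68 values under alternatives, and 8 left their counting interval. In the related lists, the 1 gene counted as higher became 0 on the deposited scale, with 1 RPM added or with 500 or more reads, and 2 when centred on the median ratio, scaled to the upper quartile or without a filter. The 5 counted as lower became 0 on the deposited scale and 2 with 500 or more reads, so the lower calls of Layn, Acan and Uap1l1 rest on few reads. With whole reads only there were 4, without Gnpnat1, whose recovered reads were fractions. No paired analysis was possible because each host genotype has 1 library. Depth limits Has3, Hyal2 and Hyal1 most.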
